A study of Homo sapiens with 2 samples.

Results

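The 10 genes of protein folding and stress sensing in the endoplasmic reticulum (ER) were examined in a precision run-on sequencing (PRO-seq) profile of K562 cells. They were the rows whose gene name was HSPA5, HSP90B1, CALR, CANX, PDIA4, PDIA6, XBP1, ATF6, HERPUD1 or DNAJB9, which gave 10 of the 36814 gene windows in the table. K562 is an established human line from chronic myelogenous leukaemia with erythroid features, and PRO-seq labels the RNA that engaged polymerases are making at the moment the cells are permeabilised. There were 2 libraries, both from cells grown in RPMI medium with serum and antibiotics. One came from cells treated with 0.1% DMSO, a common drug solvent, for 1 h (4154920 reads in windows) and the other from untreated cells (2136291 reads). Each treatment thus had 1 library, so no difference below has a replicate check or a p-value, and a comparison of treatments is a comparison of these libraries. All intervals are exact 95% intervals that cover counting error only, and molecular identifiers, which would show whether reads are separate molecules, are not named in the labels.

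The ER is where secreted and membrane proteins fold. HSPA5 (BiP), an Hsp70 chaperone, and HSP90B1 (GRP94), its Hsp90 partner, hold unfolded chains, CALR (calreticulin) and CANX (calnexin) bind chains that carry glucose-tipped glycans, and PDIA4 and PDIA6 make and rearrange disulfide bonds. When unfolded protein builds up, the sensor ATF6 is cut to free a transcription factor and the sensor IRE1, encoded by ERN1, splices the XBP1 message into the form that encodes an active factor. ATF6 and XBP1 act with the CCAAT-binding factor NF-Y at ER stress elements in chaperone promoters. HERPUD1 is a membrane protein of ER-associated degradation, and DNAJB9 (ERdj4) is a J-domain co-chaperone of HSPA5.

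Whether a member could be read at all depended on its neighbours. Each window ran 3000 bases to either side of the annotated gene start on hg38, and reads falling in bases that 2 windows share were absent from the counts, whatever the strand: the 1154 windows with no base of their own held 0 reads in all, among them 321 covered by windows of the opposite strand alone. The windows of HSP90B1, PDIA4, HERPUD1 and PDIA6 shared no base with another and kept all 6000. CALR kept 4450 bases, at positions -1540 to 2909 from its start, next to FARSA on one side and AC092069.1 on the other. CANX kept 2407 bases, all of them upstream at positions -3000 to -594 from its annotated start, the rest being shared with CBY3.

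The other 4 members started back to back with a gene on the opposite strand and lost nearly the whole window. HSPA5 kept 319 bases, 2681 to 2999 bases into the gene, because AL354710.2 starts 320 bases away. DNAJB9 kept 116 bases at its inner end, since the starts of PNPLA8 and THAP5 lie 201 and 117 bases away. ATF6 kept 92 bases beside AL359541.1, and XBP1 kept 85 beside Z93930.2. Windows with under 200 bases of their own thus made up 3 of the 10 members, against 12.9% of all windows, and those with under 1000 made up 4 of 10, against 23.7%.

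**Figure D1:**
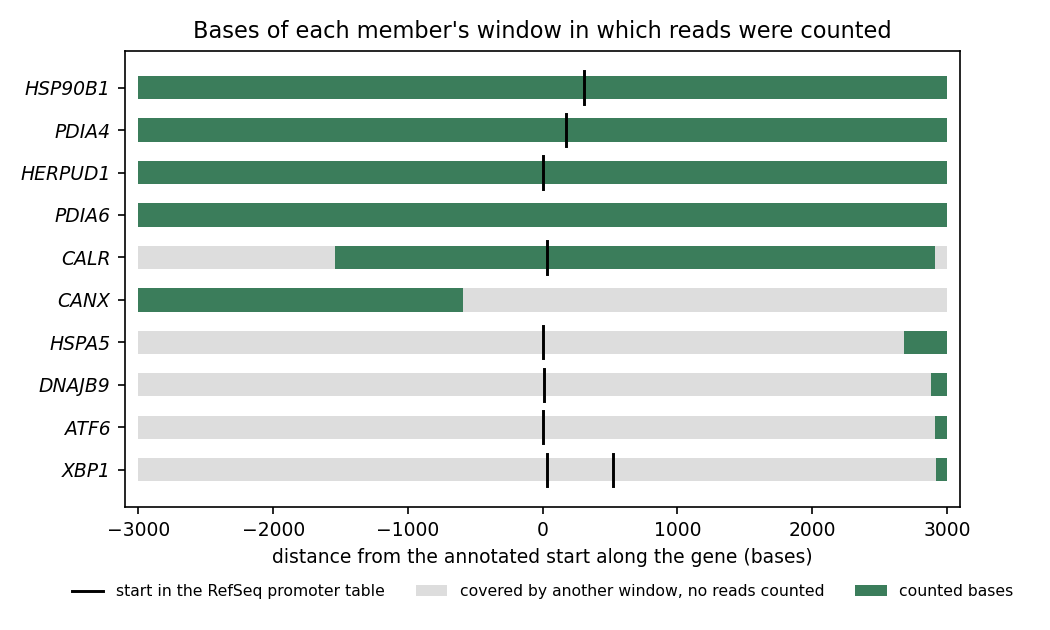
Counted bases (green) and bases shared with another window, where no read was counted (grey), of each member's 6000-base window, by distance in bases from the annotated start along the gene; black ticks mark starts of the RefSeq promoter table that fall in the window. Counted bases hold a RefSeq start for HSP90B1, PDIA4, HERPUD1 and CALR, and lie 2681 or more bases into the gene for HSPA5, DNAJB9, ATF6 and XBP1.

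In PDIA6 and CANX the window also missed the starts that the RefSeq promoter table (GRCh38.p14) lists. For PDIA6 these lie 5492 and 25192 bases downstream of the annotated start, and for CANX 19799 to 20339 bases downstream, although the whole RefSeq gene begins 265 and 28 bases from the annotated start. Such windows were 10.7% of those that could be compared. The counts of PDIA6 and CANX are therefore not reads at those starts, and the counted bases of CANX hold no RefSeq gene.

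Several of the members' promoters share a sequence. The RefSeq table gave 250 bases before to 50 after a start for all 10 members. The ER stress element was first defined on promoters of this kind. A list of ER folding and stress genes is therefore not independent of it or of its relative below. Matches in the members, HSPA5, HSP90B1 and CALR among them, are background. It was searched on both strands as CCAAT, then any 9 bases, then CCACG, which overlaps the NF-Y box, CCAAT. The element was present in 6 of the 10 (HSPA5, HSP90B1, CALR, CANX, PDIA6 and XBP1), against 25 of 27305 genes in the table, or 0.0916%. Its shorter relative, ER stress element II, read as ATTGG, any 1 base and CCACG, was found in HERPUD1 and in 0.0696% of genes. CCAAT alone was in 9 of 10 members and in 39.7% of genes. The core of the unfolded protein response element (UPRE) was also searched, and was in 0 of 10 members and in 0.927% of genes. A CRE-like core was in 2 of 10 members and 9.64% of genes, and the GC box in 8 of 10 and 48.3%. A match is a description of the letters, and none is evidence of binding in these cells.

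The 4 promoters that lie wholly in counted bases are shown because they are the members' promoters in which a read could be counted. The table gives reads per window, not per promoter. Capitals mark the element or element II, and each runs 5′ to 3′ along the gene.
HSP90B1, chr12:103930160-103930459, plus strand: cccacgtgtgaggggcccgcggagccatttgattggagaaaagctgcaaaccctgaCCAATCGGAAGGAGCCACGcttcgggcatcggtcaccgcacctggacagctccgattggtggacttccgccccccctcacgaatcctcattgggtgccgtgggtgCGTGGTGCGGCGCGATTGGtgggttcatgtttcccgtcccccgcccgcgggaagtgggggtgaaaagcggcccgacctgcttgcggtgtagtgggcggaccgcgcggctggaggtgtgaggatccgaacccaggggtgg
CALR, chr19:12938359-12938658, plus strand: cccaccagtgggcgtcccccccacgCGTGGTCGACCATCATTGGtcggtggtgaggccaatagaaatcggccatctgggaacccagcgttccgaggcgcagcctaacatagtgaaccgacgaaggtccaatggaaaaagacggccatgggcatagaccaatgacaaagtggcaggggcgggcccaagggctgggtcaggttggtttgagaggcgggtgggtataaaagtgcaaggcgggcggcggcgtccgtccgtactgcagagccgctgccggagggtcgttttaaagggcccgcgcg
PDIA4, chr7:149028441-149028740, minus strand: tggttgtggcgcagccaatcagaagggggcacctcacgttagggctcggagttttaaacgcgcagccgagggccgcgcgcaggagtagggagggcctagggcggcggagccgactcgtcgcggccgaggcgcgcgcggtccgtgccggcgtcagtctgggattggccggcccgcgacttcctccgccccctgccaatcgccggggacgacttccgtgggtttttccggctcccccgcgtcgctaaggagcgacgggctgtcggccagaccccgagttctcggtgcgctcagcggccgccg
HERPUD1, chr16:56931892-56932191, plus strand: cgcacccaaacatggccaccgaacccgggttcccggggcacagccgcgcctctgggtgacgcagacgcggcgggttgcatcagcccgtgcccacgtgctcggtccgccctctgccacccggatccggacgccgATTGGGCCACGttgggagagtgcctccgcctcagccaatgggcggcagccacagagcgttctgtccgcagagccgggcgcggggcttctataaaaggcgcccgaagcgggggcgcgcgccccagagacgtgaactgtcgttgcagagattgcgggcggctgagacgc

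Positions are counted from the RefSeq start, negative before it. HSP90B1 holds the element on both strands, at -194 to -176 and at -89 to -71. CALR holds it on the opposite strand, at -225 to -207, with a TATAAA match at -30 to -25. PDIA4 has CCAAT on either strand at 3 places and no element. HERPUD1 has element II at -117 to -107 and TATAAA at -29 to -24, a motif found in 11.5% of promoters in the table.

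In 4 other members the element lay in bases where no read was counted. It is shown alone, read on the strand that carries it, with the fixed letters in capitals. The CANX element is placed from one of several starts, and lies at -151 to -133 and at -189 to -171 from others.
HSPA5, positions -66 to -48: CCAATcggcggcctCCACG
XBP1, positions -52 to -34: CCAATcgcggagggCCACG
PDIA6, positions -86 to -68 from the inner start: CCAATgagccgcagCCACG
CANX, positions -9 to 9 from one of its starts: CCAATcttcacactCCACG

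**Figure D2:**
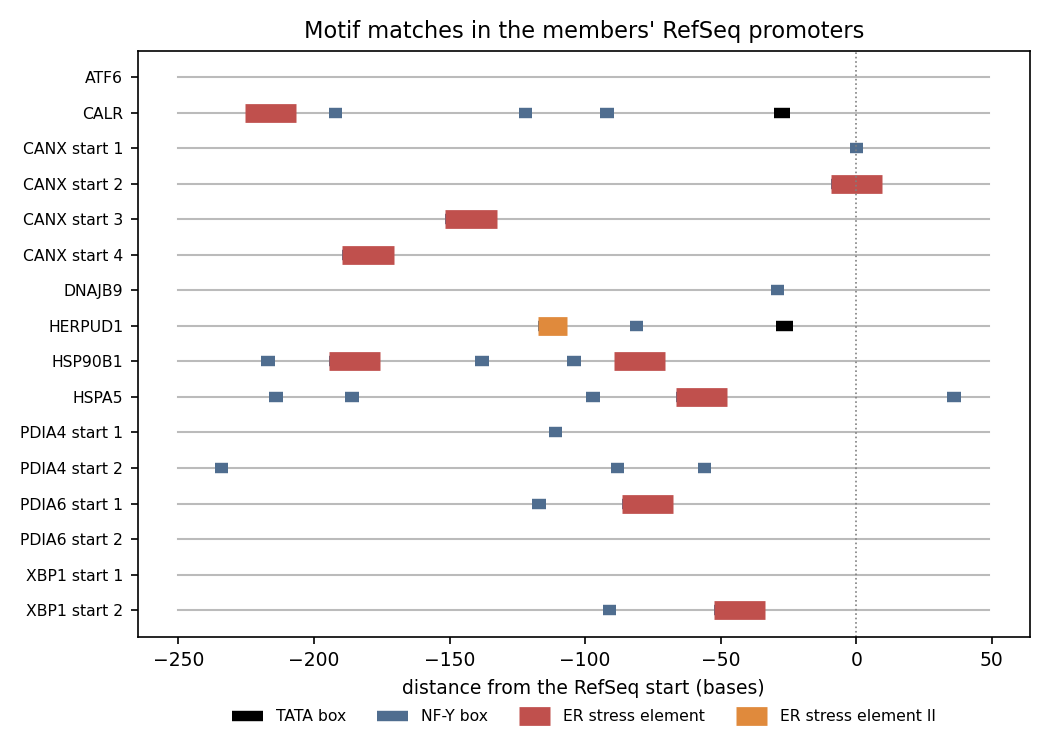
Matches to the ER stress element (red), ER stress element II (orange), the NF-Y box (blue) and the TATA box (black) on either strand of the members' RefSeq promoters, by distance in bases from the RefSeq start; members with several starts have a line each, numbered by chromosome position. HSP90B1 has 2 elements, and ATF6, DNAJB9 and PDIA4 have none.

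Among the chaperones, the HSP90B1 window (chromosome 12, 103927107 to 103933106) held 319 DMSO reads (interval 285 to 356) and 44 untreated reads (32.0 to 59.1). Its counted bases include part of the pseudogene TTC41P and the microRNA gene MIR3652, and reads are not assigned among them. The CALR window (chromosome 19, 12935578 to 12941577) held 663 DMSO reads (613 to 715) and 95 untreated reads (76.9 to 116), the most of any member in either library. CANX (chromosome 5, 179675628 to 179681627) had 153 DMSO reads and 87 untreated reads, all from upstream of its annotated start.

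HSPA5 (chromosome 9, 125238344 to 125244343) had only 16 DMSO reads (9.15 to 26.0) and 10 untreated reads (4.80 to 18.4). These fell in 319 bases, which is a density of 12.1 CPM per kb of counted bases (CPM being reads scaled to the library's total) with DMSO and 14.7 untreated. A stretch of 319 bases on the other side of the start, just past the end of the HSPA5 window and counted for AL354710.2, held 2 DMSO reads and 0 untreated reads. Of the 28 reads in both stretches, 92.9% (76.5 to 99.1) thus lay on the HSPA5 side.

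Of the disulfide isomerases, PDIA4 (chromosome 7, 149025663 to 149031662) had 493 DMSO reads (450 to 539) and 52 untreated reads (38.8 to 68.2). PDIA6 (chromosome 2, 10834978 to 10840977) had 5 DMSO reads and 0 untreated reads over a whole window that misses its RefSeq promoter starts. Under a fixed limit of 3 reads for a count of 0, the untreated 0 allows 0.234 CPM per kb. The exact interval reaches 0.288.

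Among the members, XBP1, ATF6 and DNAJB9 were almost unread, with 85 to 116 counted bases each. XBP1 (chromosome 22, 28797598 to 28803597) had 1 DMSO read and 1 untreated read in its 85 bases. ATF6 (chromosome 1, 161763320 to 161769319) and DNAJB9 (chromosome 7, 108566867 to 108572866) had 0 reads in both libraries. With so few bases the fixed limit of 3 reads still allows 7.85 CPM per kb with DMSO and 15.3 untreated for ATF6. For DNAJB9 it allows 6.22 and 12.1. The exact intervals reach 9.65 and 18.8 for ATF6, and 7.65 and 14.9 for DNAJB9. The untreated limits lie above the density of CALR, the highest of the members read at their promoter. Transcription of ATF6 and DNAJB9 was not detectable at this depth in these bases, which does not show it to be absent. HERPUD1 (chromosome 16, 56929142 to 56935141) kept its whole window, as did HSP90B1 and PDIA4. It had 227 DMSO reads (198 to 259) and 77 untreated reads (60.8 to 96.2).

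Ordered by mean CPM per kb of counted bases, CALR came first, followed by CANX, HSPA5, PDIA4, HSP90B1, HERPUD1, XBP1 and PDIA6, with ATF6 and DNAJB9 at 0. CALR had a density of 35.9 CPM per kb (33.2 to 38.7) with DMSO and 9.99 (8.09 to 12.2) untreated. PDIA4 had 19.8 and 4.06, HSP90B1 12.8 and 3.43, and HERPUD1 9.11 and 6.01 CPM per kb, DMSO first. CANX, read upstream of its start, had 15.3 and 16.9. In the untreated library CANX and HSPA5 (14.7) lay above CALR, so CALR came first in the mean through the DMSO library. Among the 32081 windows with at least 200 counted bases, these levels lay at percentile 98.8 for CALR, 96.1 for PDIA4, 92.7 for HSP90B1 and 88.6 for HERPUD1 in the DMSO library, and at 96.9, 88.4, 85.9 and 93.0 in the untreated one.

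Neighbours in that order were not all distinct. CANX and HSPA5 overlapped in both libraries, as did all neighbours from HERPUD1 downwards. HSPA5 and PDIA4 overlapped in the DMSO library alone, and PDIA4 and HSP90B1 in the untreated library alone. The DMSO library by itself kept 6 of the 10 members at the same place in the order, and the untreated library 3, as did reads over the full 6000 bases. The counted bases lie at different distances from the start, so the order is one of densities in those bases.

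**Figure D3:**
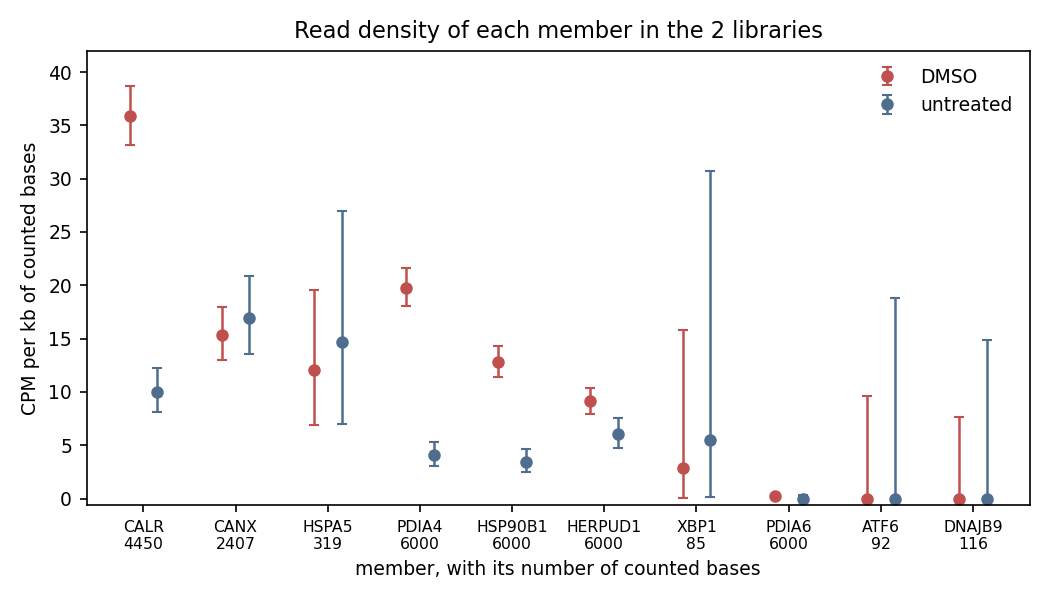
Read density in CPM per kb of counted bases for the 10 members in the DMSO (red) and untreated (blue) library, with exact 95% Poisson intervals; the number of counted bases stands under each name. CALR with DMSO is highest at 35.9, and the wide intervals of XBP1, ATF6 and DNAJB9 come with 85 to 116 counted bases.

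CPM do not compare the libraries, because 4 ribosomal RNA windows took 42.2% of the DMSO reads and 71.5% of the untreated reads. Ratios were therefore scaled with edgeR's TMM factors, under which a window of equal level has 3.81 times as many DMSO reads as untreated reads. They were set relative to the median of the 6591 windows past a floor of 5 CPM and 100 reads, which lay at 0.31 on the TMM scale. The floor was passed by 17.9% of all windows and by 5 members, CALR, CANX, PDIA4, HSP90B1 and HERPUD1. Everything below is a log2 DMSO/untreated ratio on that scale, in which 0 is the median window.

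The chaperones and the isomerase with a counted promoter stood above the median window, and HERPUD1 and CANX below it. PDIA4 stood at 1.00 (0.59 to 1.45), HSP90B1 at 0.62 (0.16 to 1.11) and CALR at 0.56 (0.25 to 0.89). HERPUD1 stood at -0.68 (-1.06 to -0.29) and CANX at -1.42 (-1.81 to -1.03). HSPA5, below the floor with 26 reads, stood at -1.52 (-2.79 to -0.26). Among the 6591 windows PDIA4 lay at percentile 93.0, HSP90B1 at 82.7, CALR at 80.5, HERPUD1 at 16.6 and CANX at 2.66. The central 95% of windows spanned -1.48 to 1.41, so all 5 lay inside the spread of windows between these libraries, CANX near its lower edge.

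At least 2-fold higher was 1 member of 5, PDIA4, against 7.04% of windows past the floor. At least 2-fold lower was also 1 of 5, CANX, against 7.97% of windows. PDIA4 was just inside the threshold at 2.01-fold, and was no longer inside it with a prior count of 2 reads, with the DMSO library thinned (0.90), with no floor (0.61), or relative to the median of windows that share no base. The next members were HSP90B1 at 1.53-fold higher and HERPUD1 at 1.60-fold lower. The median of the 5 was 0.56, beside 0 for all windows past the floor. It was -0.45 with no floor, over the 8 members with a read, on a scale whose median window then also changed. Summed over the 5, 1855 DMSO and 355 untreated reads gave 0.15 (-0.02 to 0.32), and 0.43 without CANX.

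**Figure D4:**
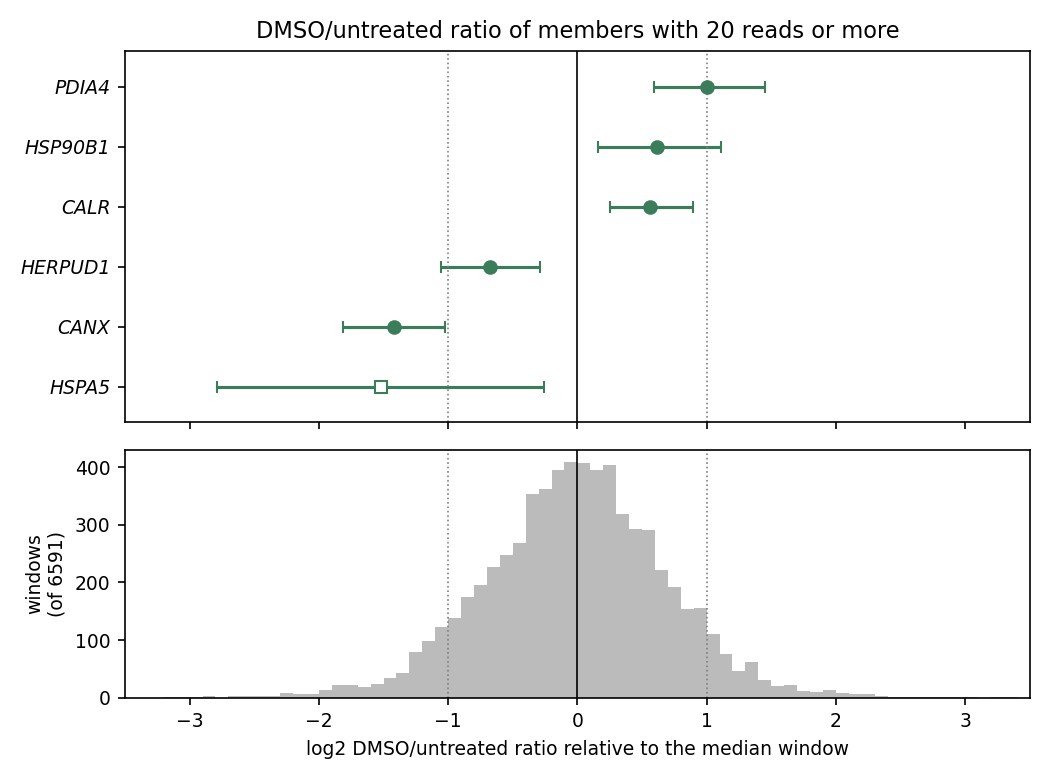
Top, log2 DMSO/untreated ratio relative to the median window for the 6 members with 20 or more reads, with exact 95% Clopper-Pearson intervals; the open square, HSPA5, is below the floor. Bottom, the same ratio for the 6591 windows past the floor; dotted lines mark 2-fold. PDIA4, HSP90B1 and CALR lie right of 0 and HERPUD1, CANX and HSPA5 left of it.

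The split among members was larger than counting error. Of the 10 pairs among the 5 members, the exact interval of the ratio of their ratios lay off 1 in 7. It held 1 in the 3 pairs within PDIA4, HSP90B1 and CALR. Every pair with CANX, whose counted bases hold no RefSeq gene, was among the 7. The quartiles of the 6591 windows past the floor lay at -0.44 and 0.44, so other windows differ from each other too. How often pairs of such windows lie off 1 was not tested, so the 7 pairs do not set the members apart. PDIA4 over HERPUD1 was 3.21 (2.15 to 4.83), HSP90B1 over HERPUD1 2.46 (1.61 to 3.79) and CALR over HERPUD1 2.37 (1.66 to 3.36). Within the 3 chaperone and isomerase genes, PDIA4 over CALR was 1.36 (0.94 to 1.98) and HSP90B1 over CALR 1.04 (0.70 to 1.56). How far such ratios vary between repeats of one treatment was not tested, as no repeat exists.

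The ratio also differed between stretches at the CALR locus. The 1277 bases from 3000 to 4276 bases into CALR, which were counted for AC092069.1, held 65 DMSO reads and 33 untreated reads. AC092069.1 lies on the opposite strand to CALR, and the counts, which appear to ignore strand, do not show which strand these reads came from. Their log2 ratio was -1.25 (-1.89 to -0.61), whereas the stretch around the start stood at 0.56. The start over the inner stretch was 3.54 (2.13 to 5.79). HSPA5, read 2681 bases and more into the gene, and CANX, read upstream, were likewise below 0. HERPUD1, read over its whole window with its promoter, was also below 0, at -0.68. Across the table, windows with 20 or more reads had a median of -0.31 where every counted base lay at least 2000 bases downstream of the start (156 windows) and -0.34 where it lay as far upstream (308 windows). Windows with all 6000 bases had -0.08 (9215 windows). These kinds also differ in size: over all their windows, at any number of reads, the median was 138 counted bases downstream and 393 upstream. The counted bases of HSPA5 are of the downstream kind, and the part of their place in its ratio was not tested.

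Around the members, the other ER genes were taken in lists by role, chosen with earlier results of these data known. Of 13 co-chaperones and partners of HSPA5, 6 passed the floor, with 4 above the median window, none past 2-fold and a median of 0.14. HYOU1, an exchange factor for HSPA5, had most reads, 445 DMSO and 84 untreated (0.17), MANF, a stress-induced HSPA5 partner, was highest at 0.95 and SDF2L1 lowest at -0.12. Of 16 disulfide and oxidation genes, 7 passed, 6 of them above the median window, none past 2-fold, with a median of 0.42. PDIA3, which works with CALR and CANX, was highest at 0.93, near PDIA4, and P4HB, the classic isomerase, had 1021 DMSO and 219 untreated reads and stood at -0.02.

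Glycan-trimming enzymes and lectins had 5 of 9 genes past the floor and a median of -0.24. MLEC, a glycan-binding lectin, was highest at 1.12 and the only one past 2-fold, GANAB, the catalytic subunit of glucosidase II, had most reads and stood at -0.27, and LMAN2 was lowest at -0.49. Of 20 degradation genes, the group to which HERPUD1 belongs, 13 passed, 8 above the median window and none past 2-fold, with a median of 0.06. VCP, the ATPase that pulls proteins out of the membrane, stood at 0.46, UBXN4 was highest at 0.91 and ERLEC1 lowest at -0.44, so HERPUD1 at -0.68 lay below all 13. The translocon and signal peptidase list had 4 of 17 past the floor, with SSR2 at 0.71, SEC11A, which had most reads, at 0.34 and SEC61A2 at -0.87.

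Of 15 sensor and factor genes 4 passed the floor, all above the median window, with a median of 1.06. Of the 4, 2 were at least 2-fold higher, against 7.04% of all windows past the floor. NFYB and NFYA, subunits of NF-Y, stood at 1.82 (1.31 to 2.39) and 0.51 (0.26 to 0.77). ERN1, picked out after its value was seen, had 282 DMSO and 22 untreated reads and stood at 1.43 (0.82 to 2.14). EIF2AK3, which encodes the sensor PERK and was also picked out after its value was seen, had 1 DMSO read and 0 untreated reads in 74 counted bases. The PERK and ATF4 list had 7 of its 8 genes past the floor below the median window and a median of -1.01. Of the 8, 4 were at least 2-fold lower, against 7.97% of all windows past the floor. ATF4, its transcription factor, stood at 0.39, and CHAC1, a target of it, at -4.73 with 21 DMSO and 122 untreated reads. The other 3 past 2-fold, named after their values were seen, were SLC7A11, ASNS and SESN2.

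The members' relatives outside the ER gave a further comparison. Of 11 such chaperones 6 passed the floor, 5 of them above the median window, with a median of 0.42. HSP90AB1, the cytosolic counterpart of HSP90B1, stood at 0.65, beside 0.62 for HSP90B1. HSPH1 was highest at 1.51 and HSPA9, the mitochondrial Hsp70, lowest at -1.14. HSPA8, the cytosolic counterpart of HSPA5, likewise chosen after its value was seen, had 1 DMSO read and 2 untreated reads in 576 counted bases.

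**Figure D5:**
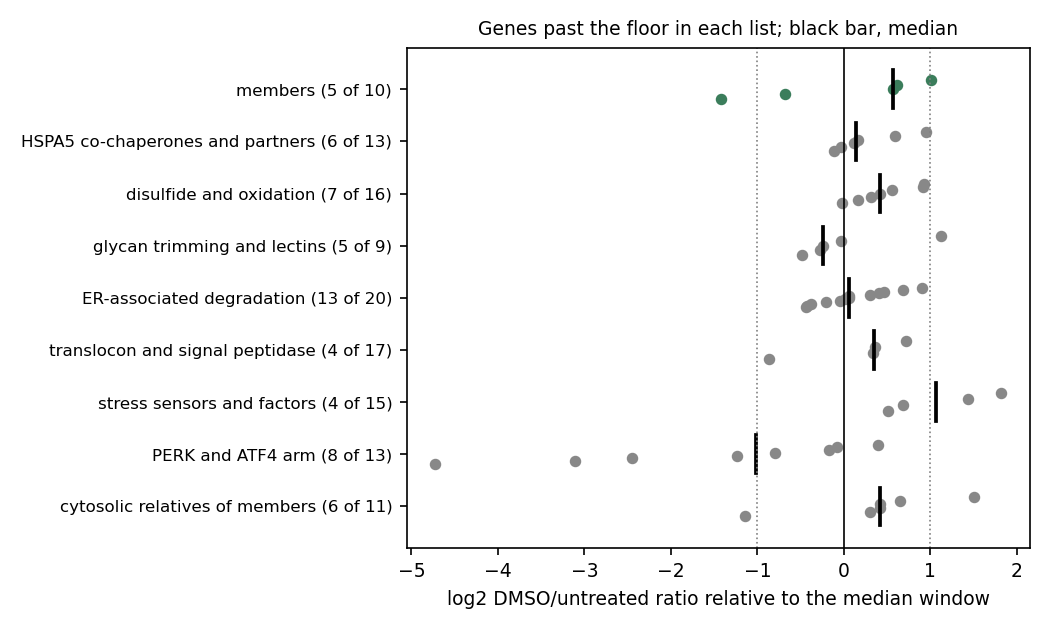
Log2 DMSO/untreated ratio relative to the median window of each gene past the floor, by list, with the number past the floor of all genes in the list; black bars are medians and dotted lines mark 2-fold. The members (green) run from -1.42 to 1.00, and the PERK and ATF4 list reaches -4.73.

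The erythroid markers of the line were read in both libraries. Of 10 erythroid markers all had DMSO reads and 9 had untreated reads (3382 and 1172 reads in sum). The exception, HBG2, had 2 DMSO reads in 47 counted bases, so its 0 untreated reads say little. The 6 that passed the floor all lay below the median window, from -1.15 for HBG1, a fetal globin, to -0.25 for EPOR, the erythropoietin receptor. Of 10 neural markers 10 had DMSO reads and 2 had untreated reads, 992 and 16 reads in sum, or 239 and 7.49 CPM. GFAP, which alone held 514 of the DMSO reads, NTRK2 and MT3 were at 0 untreated. STMN2 and GAP43 had 1 DMSO read each and OLIG1 had 3, so few that their 0 untreated reads say little. SOX10 went the other way and was below the floor, with 49 DMSO and 15 untreated reads (-0.53). The 6 markers of plasma cells, which build much ER, held 79 DMSO reads and 13 untreated reads, and none passed the floor. Of 6 fibroblast and epithelial markers, COL1A1, COL1A2, COL3A1 and EPCAM were at 0 in both libraries. EPCAM had 83 counted bases, so its 0 does not show transcription to be absent. KRT18 had 68 DMSO and 36 untreated reads and passed the floor at -1.31, and CDH1 had 4 and 2 reads. Lymphoid markers held 241 DMSO reads and 71 untreated reads. The part of these differences in the members' ratios was not tested.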

How the data were processed

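The labels' protocols describe a run-on with biotinylated nucleotides, streptavidin capture and a directional RNA kit. The submitters' processing notes name Bowtie2 2.3.5, featureCounts 2.0.1 and hg38. The deposited counts are whole reads per 6000-base window. The deposited TPM equalled CPM in all 36814 windows (tolerance 1e-06) and were not used further, nor was the authors' mean TPM column.

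Bases that no other window covers were found on either strand. Ratios used edgeR 4.0.16 TMM factors (R 4.3.3) and a prior count of 0.5 reads, scaled to library size. Intervals are exact Poisson or Clopper-Pearson intervals, and ratios of ratios have exact conditional intervals (scipy 1.17.1). The calculation was tested on simulated data. DESeq2 1.42.0 size factors served as an alternative.

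Promoters came from RefSeq GRCh38.p14, the assembly of the files. Named genes were all members and, per list, the gene with most CPM and those at either end of the ratios past the floor; other genes named were chosen after their values were seen. The members and lists were chosen with earlier results of these data known. The windows nearest to XBP1 and ATF6 in level are not given, since they had under 3 reads, and protein sequences were not used here.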

Additional observations from a re-analysis of the deposited data

How the results depend on the processing

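No paired analysis was possible because DMSO and untreated cells gave 1 library apiece, so no replicate could be left out either. Library totals, DESeq2 size factors and leaving out ribosomal RNA and mitochondrial windows changed no count of members past 2-fold. Centring on the median window cancels any scaling factor except through the prior count. The lack of change under other factors was thus largely fixed in advance and does not test the scaling. The windows past 2-fold, 464 higher and 525 lower, came to 991 and 222 without centring on the median window, 1528 and 1467 at a floor of 1 CPM and 20 reads, 8109 and 7368 with any read, 145 and 248 with the DMSO library thinned to the untreated reads outside ribosomal RNA and mitochondrial windows, and 1229 and 1295 at 1.5-fold. Members higher (1) numbered 0 with a prior count of 2, with thinning and in windows that share no base, and 2 at 1.5-fold. With any read it stayed at 1 with another gene: PDIA6, with 5 DMSO reads and 0 untreated reads, at 2.17, while PDIA4 stood at 0.61. Members lower (1) numbered 2 at 1 CPM, where HSPA5 enters, 4 with any read, 0 in windows that share no base, where CANX drops out, and 2 at 1.5-fold. The members' median (0.56) was 0.055 at 1 CPM and -0.45 with any read. Their summed ratio (0.15) was 0.46 without centring, -0.27 with any read, 0.33 in windows that share no base and 0.43 without CANX, the last chosen after seeing the data. Floors and window choices change which windows are counted; other causes were not tested. With any read, the median window changed, and all members with a read moved down by the same amount. CALR (0.17) and HERPUD1 (-1.07) thereby fell outside their counting intervals, with their own counts unchanged. Thinning was 1 random draw. HSPA5, XBP1, PDIA6, ATF6 and DNAJB9 had 26 reads or fewer, with 85 to 319 counted bases in all but PDIA6, whose window misses its RefSeq promoter starts.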

Other observations

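Genes outside the members whose RefSeq promoter holds the ER stress element were looked up after the members' promoters had been read. There were 19, of which 16 had a window and 4 passed the floor. ERO1B, an ER oxidase, had 244 DMSO and 35 untreated reads and a log2 ratio of 0.56 (0.05 to 1.12), and EIF2A had 380 and 65 reads and stood at 0.31. ZNF17 stood at -0.24, and TMEM120A, with 287 DMSO and 128 untreated reads, at -1.07 (-1.38 to -0.76). FICD, the enzyme that modifies HSPA5 with AMP, had 26 DMSO and 7 untreated reads in 253 counted bases. CRELD2 had 2 DMSO reads and 0 untreated reads, and SERP1 2 and 2. Over the 4 past the floor the median was 0.03, beside 0 for all windows past the floor.

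For ER stress element II there were 18 such genes, 14 with a window and 3 past the floor. These were SHCBP1 at 0.57, HYOU1 at 0.17 and SDF2L1 at -0.12. Under 1000 counted bases were left to 6 of the 16 windows with the first element and to 6 of the 14 with element II.

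By level in the 2 libraries, the windows nearest to HSPA5 among those past the floor with all bases counted were STOX1 with 88 DMSO and 12 untreated reads, HS6ST1 with 86 and 14 and LAS1L with 85 and 15. They lay 2.47 to 2.48 away in log2 CPM, and 2 libraries do not make this a pattern. HSPA5 is itself below the floor, and these windows lie at it, so the floor set which windows came out nearest. The match was also on CPM per window, although HSPA5 kept only a small part of its window. The search therefore cannot show which windows resemble HSPA5 in density.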
